A study of Bos grunniens with 18 samples.

Results

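APP encodes the amyloid beta precursor protein. The genes looked for here were APP, its paralogs APLP1 and APLP2, and proteases that cut these proteins or subunits of such a protease. They were chosen by symbol, after APP had been seen to hold the highest value among the rows of the yak ovary expression table analysed here. Of the 9 symbols, 1 (APP) was found among the 173 genes of the expression rows analysed, and it was 1 of the 130 genes that passed the minimum level for testing. APLP1, APLP2, BACE1, BACE2, PSEN2, ADAM10 and ADAM17 were not analysed here. NCSTN was described by its m6A peaks alone. The results are therefore those of APP, with APH1A, the 1 gene of its processing pathway whose expression was at hand, beside it.

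The ovaries came from healthy yaks (Bos grunniens) aged 6 years, held on 1 farm, and were taken in April (anestrus, YO-A), August (estrus, YO-F) and December (pregnancy, YO-P). The labels name no genetic change or treatment in any group. Poly(A) RNA of 3 ovaries a stage was sequenced as 9 input libraries, and 9 libraries of RNA immunoprecipitated for m6A, the methylation of adenosine at its N6 position, accompanied them. Each stage was collected in a single month, so stage and season cannot be told apart, and since no source used here says that each library is a separate animal, p-values measure the spread between these samples. In whole ovary, fewer cells of a type and less RNA per cell cannot be told apart. Of 72 marker genes in 13 lists of ovarian and other cell types, 1 was in the rows analysed, the lymphocyte gene CD96 (mean FPKM of 1.27 over 9 libraries), so the tissue could not be checked against its defining markers.

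APP is a membrane protein made in most tissues. Cleavage by ADAM10 or ADAM17 releases its soluble outer part, whereas BACE1 cuts it at the site that starts amyloid beta. The stump left by either cut is then trimmed inside the membrane by gamma-secretase, a complex of a presenilin (PSEN2 is a member of this pair of proteins), nicastrin (NCSTN), APH1A and PEN2. The same enzymes process many other membrane proteins, Notch receptors among them, and BACE2 is a relative of BACE1 that also cuts APP outside this site.

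APP (ENSBGRG00000000062) spans 347592 bases on the minus strand of chromosome 1, from 27698287 to 28045878 in the coordinates of the authors' table, with 6 transcripts listed. Levels are given as FPKM, fragments scaled to exon length and to the mapped reads of the library, so that levels of different genes can be compared per length. In anestrus the FPKM of APP was 213 in YO-A1, 301 in YO-A2 and 275 in YO-A3. In estrus it was 345 in YO-F1, 211 in YO-F2 and 282 in YO-F3. In pregnancy it was 280 in YO-P1, 319 in YO-P2 and 257 in YO-P3. YO-F1 was the highest library and YO-F2 and YO-A1 were the lowest pair, and the ranges of the 3 stages overlapped.

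The study left YO-F2 out after a principal component analysis, and the same was done here. Correlated with each other library over the 130 genes tested, YO-F2 had a median Pearson r of 0.800, where the remaining libraries had medians of 0.928 to 0.960. The values of APP and APH1A that rest on estrus are given with and without it. The mean FPKM of APP was 263 ± 45.0 in anestrus (SD, n = 3), 313 ± 44.5 in estrus (SD, n = 2) and 285 ± 31.4 in pregnancy (SD, n = 3). With YO-F2 the estrus mean was 279 ± 67.1 (SD, n = 3), which lies below the pregnancy mean. The order of the stage means thus turned on that library, and no neighbours in the order differed beyond their spread.

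**Figure D1:**
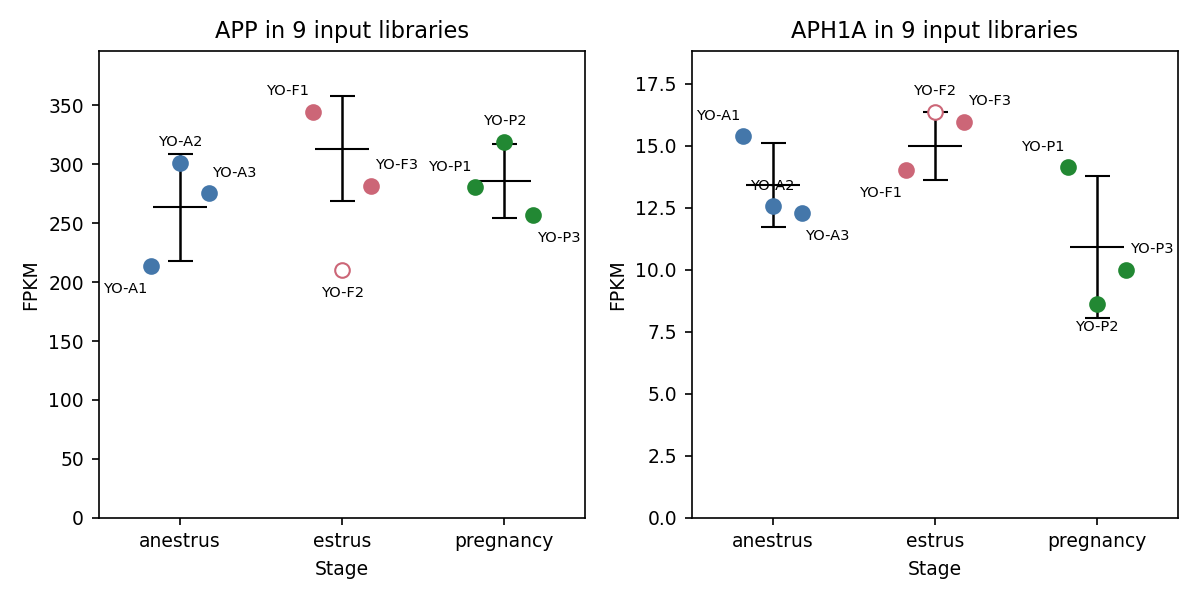
FPKM of APP (left) and APH1A (right) in each of the 9 input libraries, by stage, on axes that start at 0. Points are libraries, the open point is YO-F2, and the bars give the mean and SD without it. The APP points lie between 211 and 345 and overlap across the 3 stages.

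APP had the highest FPKM of the 173 genes in each of the 8 libraries used, at 1.07 to 1.87 times the next gene. This level is what drew attention to APP and is given as a description. It took 8.25% to 12.3% of the summed FPKM of the 173 genes in these libraries. In YO-F2 its share was 7.20% and it stood at place 4, at 0.680 times the highest gene. The genes above it there were ENSBGRG00000000124, at 310 against 30.2 to 47.0 in the other 8 libraries, ENSBGRG00000000202, at 222 against 131 to 200.2, and ENSBGRG00000000144, at 213 against 167 to 210.1. All 3 were thus higher in YO-F2 than in any other library, whereas APP was lowest there, by little (211 against 213 in YO-A1). The 173 genes lie on chromosomes 1 to 4, with 135 of them on chromosome 1, so the rank says nothing of genes elsewhere.

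Over the 8 libraries the mean FPKM was 284 ± 39.6 (SD, n = 8), a coefficient of variation of 13.9%, and the highest library was 1.61 times the lowest. With YO-F2 the mean was 276 ± 44.4 (SD, n = 9) and the coefficient of variation 16.1%. On the log2(FPKM + 0.1) scale the SD over the 8 libraries was 0.21, and 32 of the 130 genes tested (24.6%) had a smaller one. The median gene had 0.32. Within stages the SD of APP was 0.21 as well, against a median of 0.31, with 39 genes below it. Low genes vary more on this scale, so APP was also set, after the values were seen, beside the 10 genes next below it in mean FPKM (68.3 to 188). Of these, 7 had a smaller SD than APP, and their median was 0.18. APP was thus less variable than most genes tested but not less variable than genes near its level.

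**Figure D2:**
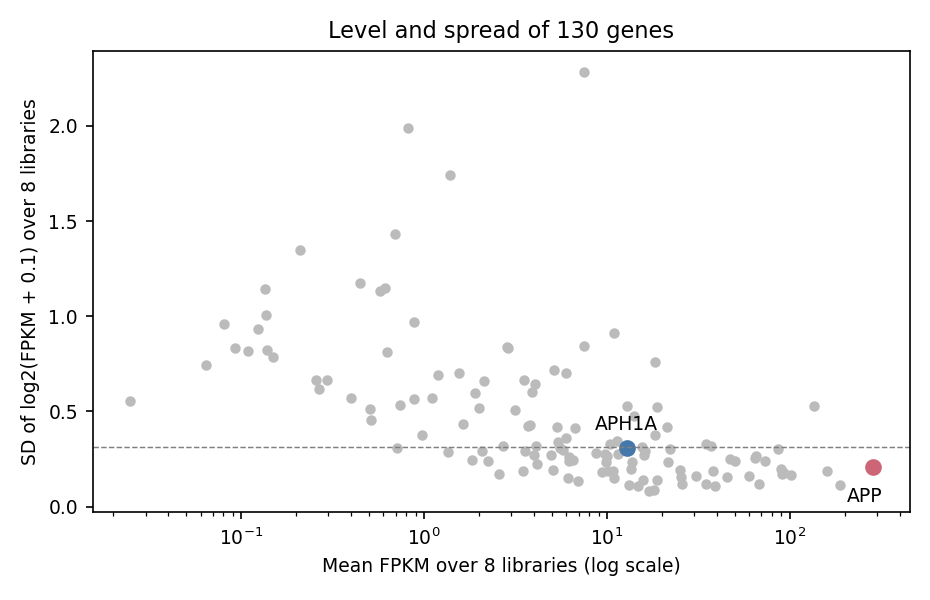
Mean FPKM over 8 libraries (log axis) against the SD of log2(FPKM + 0.1) over the same libraries. Each point is 1 of the 130 genes tested, and the dashed line is the median SD of 0.32. APP lies at the right end, at 284 and 0.21, and APH1A at 12.9 and 0.31.

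To learn whether APP changed between reproductive periods, stages were compared with limma on the log2 scale in 1 fit of all 130 genes. The study's standard asks for a log2 fold change of 1 or more in either direction and an unadjusted p under 0.05, and an adjusted p under 0.05 was applied separately. APP was not called in any of the 3 comparisons, by either standard.

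In YO-FvsA, estrus over anestrus, the log2 fold change of APP was 0.26 ± 0.17 (SE), with a 95% interval from -0.14 to 0.65 and an adjusted p of 0.743 by limma. The median log2 fold change of all genes tested was 0.07. With YO-F2 the value was 0.07, with an interval from -0.39 to 0.53. The exact two-sided permutation test gave p = 0.4 without YO-F2 and p = 0.8 with it. The smallest p it allows is 0.1 for 3 libraries against 3, and 2 against 3 cannot go that low. Of the 130 genes, 2 (1.54%) passed the study's standard. By adjusted p the share was 0, and 12 genes had an unadjusted p under 0.05 by limma. Leaving out YO-F3 as well would leave 1 estrus library, so the count of that fit is not set beside these.

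In YO-FvsP, estrus over pregnancy, the log2 fold change was 0.13 ± 0.17 (SE), with a 95% interval from -0.26 to 0.53 and an adjusted p of 0.867 by limma, beside a median of 0.07 over all genes. With YO-F2 the direction turned, at -0.06 with an interval from -0.52 to 0.40. The exact permutation test gave p = 0.4 without YO-F2 and p = 1 with it. The study's standard was passed by 3 genes (2.31%), with 0 by adjusted p and 12 at an unadjusted p under 0.05 by limma.

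In YO-PvsA, pregnancy over anestrus, the log2 fold change of APP was 0.13 ± 0.16 (SE), with a 95% interval from -0.23 to 0.48 and an adjusted p of 0.910 by limma, beside a median of -0.03. This direction rested on YO-A1, the lowest anestrus library, and without it the value was -0.02. The exact permutation test gave p = 0.6. Here 3 genes (2.31%) passed the study's standard, 0 passed by adjusted p, and 4 had an unadjusted p under 0.05 by limma.

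In none of the 3 comparisons did the libraries of the stages separate for APP. Over all genes tested, libraries of the 2 stages did not overlap for 19.2% of genes when estrus was set against anestrus (13.8% with YO-F2), 26.9% for estrus against pregnancy (14.6% with YO-F2) and 9.23% for pregnancy against anestrus. The intervals above lie within a log2 fold change of 1 in either direction, with and without YO-F2, whereas differences of the size of the estimates themselves could not be resolved with these libraries. The comparisons share their libraries and are not independent.

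**Figure D3:**
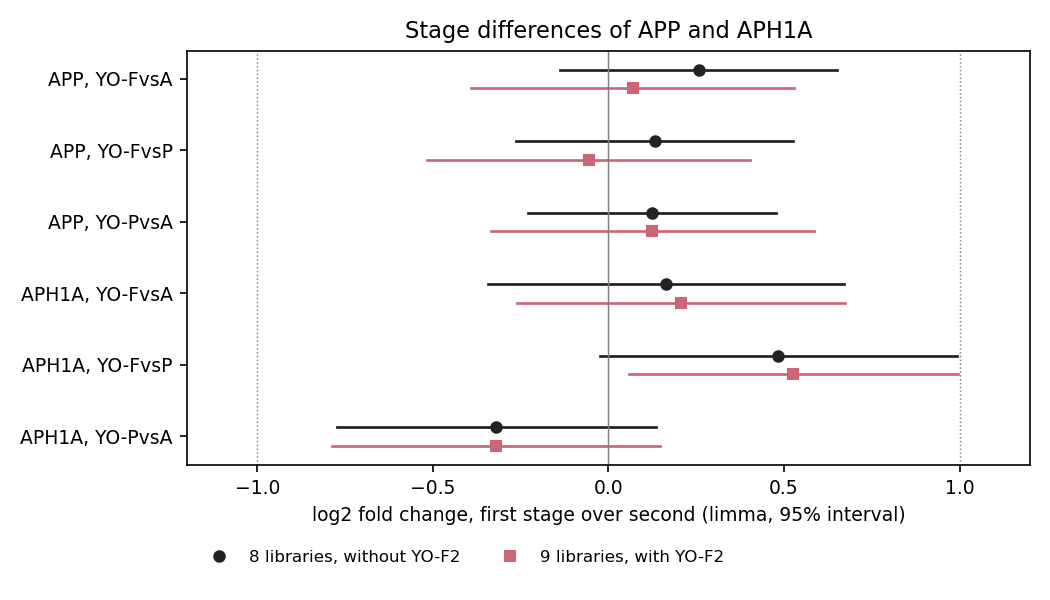
log2 fold changes of APP and APH1A for the 3 comparisons (first stage over second), with 95% intervals from limma. Circles are from the 8 libraries without YO-F2, squares from all 9, and the dotted lines mark a log2 fold change of 1 in either direction. Every interval of APP includes 0, and in YO-FvsP its estimate moves from 0.13 to -0.06 when YO-F2 is added.

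Of 70 further genes of the pathway, in 6 lists (other gamma-secretase subunits, other sheddases, partners of ADAM10 and ADAM17, adaptors and trafficking proteins of APP, proteins that bind or break down amyloid beta, and other gamma-secretase substrates), 1 was in the rows analysed. This was APH1A (ENSBGRG00000000249, chromosome 3, 20753544 to 20757164, minus strand, 3 transcripts), the subunit that holds the gamma-secretase complex together as it forms. It passed the study's standard in 0 of the 3 comparisons, which stand beside the shares of all genes given above.

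In anestrus the FPKM of APH1A was 15.4 in YO-A1, 12.6 in YO-A2 and 12.3 in YO-A3. In estrus it was 14.0 in YO-F1, 16.4 in YO-F2 and 16.0 in YO-F3. In pregnancy it was 14.1 in YO-P1, 8.60 in YO-P2 and 9.99 in YO-P3. The highest pregnancy library, YO-P1, overlapped the estrus libraries, and the other two lay below every library of the other stages. The stage means were 13.4 ± 1.71 (SD, n = 3), 15.0 ± 1.36 (SD, n = 2, or 15.5 ± 1.25 with YO-F2, n = 3) and 10.9 ± 2.87 (SD, n = 3).

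For APH1A the widest difference was that of YO-FvsP, at a log2 fold change of 0.48 ± 0.22 (SE), with an interval from -0.02 to 0.99 and an adjusted p of 0.535 by limma. With YO-F2 it was 0.53, with an interval from 0.06 to 0.99 and an adjusted p of 0.348, so the lower bound passed 0 while the adjusted p stayed above the threshold. YO-PvsA gave -0.32 ± 0.20 (SE), with an adjusted p of 0.874, and YO-FvsA 0.16 ± 0.22 (SE), with an adjusted p of 0.863 (0.21 and 0.657 with YO-F2). The exact permutation tests gave p = 0.4 for YO-FvsP and p = 0.4 for YO-FvsA, or p = 0.2 for each with YO-F2, and p = 0.3 for YO-PvsA. Libraries overlapped in each.

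APP stood far above APH1A per length in every library. The ratio of their FPKM was 13.9, 24.0 and 22.4 in anestrus, 24.6, 12.9 and 17.7 in estrus, and 19.8, 37.1 and 25.7 in pregnancy, in the order of the replicate numbers. The widest ratio belonged to YO-P2, where APP was the highest pregnancy library and APH1A the lowest of all. The levels of the pair did not run together over the libraries (Pearson r of -0.28 over 8 libraries and -0.44 over 9, as a description), and APH1A stood at place 62 of 81 genes ranked by likeness to APP.

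Among those 81 genes, with a symbol and a mean FPKM of at least 1, the 5 whose log2(FPKM + 0.1) followed APP most closely over the 8 libraries were SCAF4 (Pearson r of 0.91), BEND5 (0.87), URB1 (0.70), F3 (0.70) and ADAMTS1 (0.66). These are descriptions over libraries that share stages, and with 9 libraries the values were 0.62, 0.66, 0.81, 0.81 and 0.75. SCAF4, a protein that binds the tail of RNA polymerase II, had a mean FPKM of 15.9 over 9 libraries, and BEND5, a BEN domain protein, had 1.36. URB1, a ribosome biogenesis factor, had 2.50. F3, the tissue factor that starts blood clotting, ranged from 1.40 in YO-F2 to 8.25 in YO-P2. ADAMTS1, a protease of the ovarian matrix, was at 11.6 in YO-F2 and at 79.4 to 259 elsewhere. URB1, F3 and ADAMTS1 thus had their lowest value in YO-F2. So did APP, but by little (211 against 213 in YO-A1). That library was the least like the others over all genes tested, and other genes, ROBO1 and PLCL2 among them, were lowest there too.

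The authors' table annotated 4 of the 173 genes to the KEGG pathway of Alzheimer disease. These were APP, APH1A, and ENSBGRG00000000060 and ENSBGRG00000000144, both annotated to oxidative phosphorylation as parts of the ATP synthase. ENSBGRG00000000060 had a mean FPKM of 101 ± 11.7 (SD, n = 8) and ENSBGRG00000000144 had 188 ± 15.0 (SD, n = 8). Of the 4 genes, 0 passed the study's standard in any comparison. Depending on the comparison, 1.54% to 2.31% of the 130 genes tested passed it, so 0 of 4 says little about this annotation. The log2 fold changes of ENSBGRG00000000144 were 0.13, 0.25 and -0.12 for YO-FvsA, YO-FvsP and then YO-PvsA, and those of ENSBGRG00000000060 were -0.05, -0.10 and 0.04. With YO-F2 the first 2 values were 0.14 and 0.26 for ENSBGRG00000000144, and turned to 0.07 and 0.03 for ENSBGRG00000000060.

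The m6A peaks are stretches of RNA enriched in the immunoprecipitated libraries over the input, with 1 list per stage and no value per library, so that stages were not tested against each other here. Analysed here were the first 9 peaks of the anestrus list, 18 of the estrus list and 282 of the pregnancy list. All lay on chromosome 1, so genes of other chromosomes, NCSTN on chromosome 3 among them, could not appear. Under the 9 symbols 0 peaks were listed, which says nothing of genes that these parts did not reach. The anestrus part ended at position 22449705 of chromosome 1, before APP. The estrus part ended at 36965772, past the position of APP, with 0 peaks inside its span. In both parts every listed gene was on the plus strand, and the lists seem to give 1 strand and then the other. This order was read from the strands of the listed genes, as no strand of a peak was given. On that reading neither part reached APP, a gene of the minus strand, and the lists of these stages are silent on it. The pregnancy part began with 238 peaks, 12 of them listed under a gene of the minus strand. Then came 44 peaks between 11912863 and 46144327, 42 of them listed under a gene of that strand. It was thus read as reaching past APP on the minus strand.

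One peak of the pregnancy list lay inside the APP gene. It ran from 27857907 to 27900203 on chromosome 1, and consisted of 1 block of 114 bases (27857907 to 27858020) and 1 of 66 bases (27900138 to 27900203), 187.858 kb and 145.675 kb downstream of the first base of APP. The authors' table listed it as an exon peak of ENSBGRG00000000064, a gene of 1101 bases on the plus strand (27860863 to 27861963) that lies within APP. However, 0 of the 180 bases in its blocks fell on that gene, with gaps of 2843 and 38175 bases between them. Whether the blocks are exons of APP was not tested, as exon positions were not used here. The strand of the peak itself was not given, so it was placed within APP by position alone.

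The fold enrichment of this peak was low while its p was small. It was 1.35, and 2 of the 282 peaks of the list (0.709%) had a lower one. The median peak had 4.43 and the range was 1.21 to 30.2. The log10 of its p-value was -97, with 53 peaks of the list further below 0, and that of its FDR was -95.4. These are values from the authors' peak caller for 1 list without replicates.

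A further table, made by the authors to set estrus peaks against those of pregnancy, listed 3 peaks under the genes looked for, among 263 peaks of the part analysed. APP had 1, annotated to its 3′ UTR, of 210 bases from 27698287 to 27698496, which ends at the last base of the gene. The pregnancy list had no peak there, but the peaks of this table were called on both stages together, unlike those of that list. As the estrus part analysed was read as ending before the minus strand, the peak cannot be assigned to either stage. NCSTN (ENSBGRG00000017046, chromosome 3, 8070165 to 8086964, plus strand), which encodes nicastrin, the subunit of gamma-secretase that receives its substrates, had 2 peaks annotated to the 3′ UTR. They covered 449 bases from 8084722 to 8085170 and 210 bases from 8085260 to 8085469, and ended 1794 and 1495 bases before the end of the gene. Of the pathway lists, SNX27, a sorting protein of endosomes, had 1 exon peak on chromosome 3 within 22148772 to 22176937. The peaks of APP and NCSTN in this table were all annotated to 3′ UTRs, as were 103 of the 263 peaks (39.2%), and the table gives no level for either stage on its own.

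**Figure D4:**
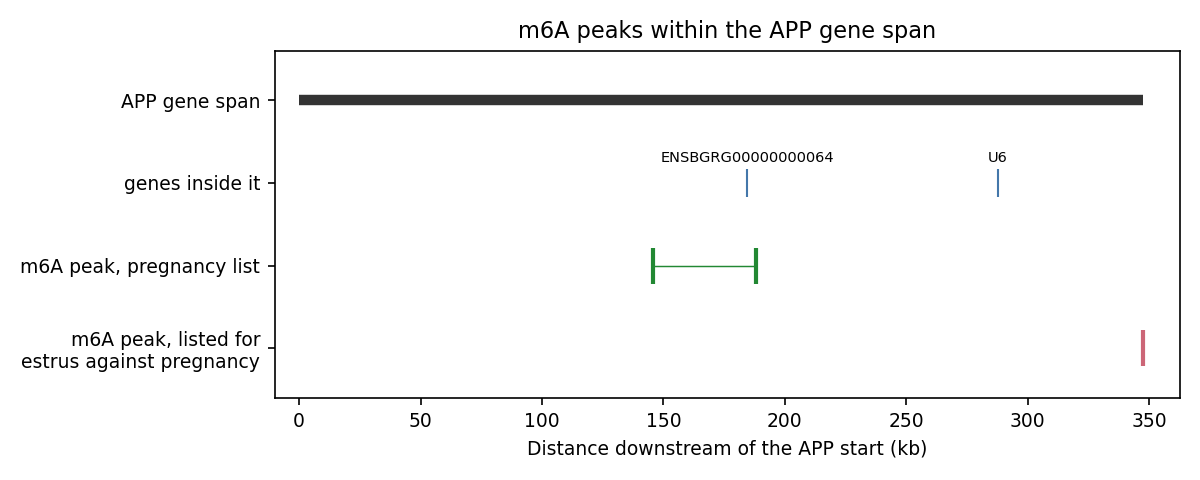
Positions within the APP gene, as distance in kb downstream of its first base on the minus strand. Rows show the gene span, the genes that lie inside it (ENSBGRG00000000064 and a U6 RNA), the blocks of the pregnancy peak joined by a line, and the peak of the table that compares estrus and pregnancy. The pregnancy blocks lie at 145.675 and 187.858 kb and miss ENSBGRG00000000064, and the other peak is at the very end of the gene.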

How the data were processed

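The 18 libraries of the series are 9 input and 9 m6A immunoprecipitation libraries. The authors filtered reads with fastp, aligned them to the Bos grunniens genome with HISAT2 (2.0.4 in the submitters' processing notes), and deposited gene levels as FPKM from StringTie. FPKM holds no counts, so depth was unknown and no counting error was computed. Use of strand in the counting was not given in the sources used here. The authors deposited m6A peaks with a fold enrichment (ratio), a p-value and score columns with the log10 of p and FDR, annotated with ChIPseeker 1.18.0, in 1 list per stage. The study's methods give the genome by its species and a version number only, and the peak caller was not given in the sources used here. Columns with the authors' own comparison of stages (log2 fold change, p-value and FDR of methylation) were not used. The rows analysed are those at the start of each file, up to an incomplete last line that was left out. All 9 symbols were found in the RefSeq table supplied (assembly Bosgru_T2T1.0), from which no coordinates were taken.

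A gene was tested if its FPKM averaged 0.1 or more over all 9 libraries, on the scale of log2(FPKM + 0.1), on which fold changes of low genes are understated. Differences between stages came from limma 3.58.1 under R 4.3.3 (empirical Bayes with a trend, 1 fit of 8 libraries, two-sided, Benjamini-Hochberg over all genes tested), in place of the study's test on counts. Exact permutation tests were two-sided, on the log2 values of single genes. Alternatives were other pseudocounts (0.01 and 1), filters, scalings, library sets, moderation without the trend and a replicate block. Other values were computed in Python 3.11.15 (scipy 1.17.1, pandas 2.3.3, numpy 2.4.6), and figures were drawn with matplotlib 3.10.9.

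Genes named were all genes looked for, the pathway genes that passed the study's standard and the 2 highest of each pathway list, and the 5 genes most like APP. The genes above APP in YO-F2, those of the Alzheimer disease annotation and the neighbours were added after their values were seen. Members and lists were chosen with earlier results of these data known.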

Additional observations from a re-analysis of the deposited data

How the results depend on the processing

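APP and APH1A were not called in any comparison under any alternative that gave a value, and the lowest adjusted p by limma was 0.462 for APP and 0.286 for APH1A. APH1A kept its direction throughout. APP kept it in YO-FvsA, from 0.07 with YO-F2 to 0.40 without estrus replicate 3. In YO-FvsP it turned to -0.056 with YO-F2 included, and leaving out 1 library at a time gave -0.013 (without estrus replicate 1) to 0.28. In YO-PvsA leaving out 1 library gave -0.018 (without anestrus replicate 1) to 0.23. Leaving out an estrus library leaves 1, assumed to vary like the other groups.

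The count of all genes called was 2 in YO-FvsA, and 1 with a pseudocount of 1, a minimum mean FPKM of 1, median-ratio scaling or a fit of the 2 stages alone, 5 with YO-F2, and 1 to 9 with 1 library left out (9 without estrus replicate 3, 4 without anestrus replicate 3, and 1 without any of the pregnancy replicates). It was 3 in YO-FvsP, and 1 with a pseudocount of 1, 5 with YO-F2 and 3 to 9 with 1 library left out (9 without estrus replicate 3, 5 without pregnancy replicate 2). It was 3 in YO-PvsA, and 1 with a pseudocount of 1 or without anestrus replicate 3. By adjusted p, where limma gave 0 in each comparison, 7 of 19 alternatives gave calls in YO-FvsA (5 without estrus replicate 3 and 1 in each of the others), 4 gave 1 call in YO-FvsP and 0 gave any in YO-PvsA. Genes at an unadjusted p under 0.05 numbered 6 to 19 in YO-FvsA, 8 to 20 in YO-FvsP and 3 to 7 in YO-PvsA.

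Deviations from the stage means had a correlation of -0.17 to 0.39 in 7 pairs of the same replicate number, and 1 was over 0.1. In 14 pairs of different numbers it was -0.39 to 0.48, and 6 were over 0.1. With 2 estrus libraries in the fit, their deviations mirror each other, so the pairs are not independent and cannot exclude a pairing. With the number as a replicate block, APP had log2 fold changes of 0.35 (YO-FvsA), 0.23 (YO-FvsP) and, for pregnancy over anestrus, 0.13, and all-gene counts were 1, 4 and 4.

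Quantile normalization gives APP no value, because it sets the highest gene of every library equal. A stricter FDR for peaks (log10 of at most -2) could not remove the 1 pregnancy peak inside APP, which had -95.4, so it is no check of that peak. The share of APP in the sum with APLP1 and APLP2, and the peaks shared between stages, were not run.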

Other observations

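Within 1000000 bases on either side of APP the table held 9 other genes, 8 of them tested, and 0 passed the study's standard in any comparison. Over all genes tested 1.54% (YO-FvsA), 2.31% (YO-FvsP) and 2.31% (YO-PvsA) passed it, so a count of 0 among 8 says little of this stretch. On the side of the 3′ end lay MRPL39, JAM2, ENSBGRG00000000060 and GABPA. MRPL39, a protein of the mitochondrial ribosome, had a mean FPKM of 17.1 ± 0.954 (SD, n = 8), GABPA, a transcription factor of the ETS family, had 10.2 ± 1.32 (SD, n = 8), and ENSBGRG00000000060 had the 101 given above. JAM2, a junction protein of endothelial cells, had 47.3 ± 7.68 (SD, n = 8), and was at 7.88 in YO-F2 against 33.1 to 57.4 in the other libraries.

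On the side of the first base lay the matrix proteases ADAMTS1 and ADAMTS5. ADAMTS1 had a mean FPKM of 137 ± 56.8 (SD, n = 8), and its log2 fold change in YO-FvsA was 0.82 with an adjusted p of 0.521 by limma. With YO-F2 it turned to -0.51, with an adjusted p of 0.808. ADAMTS5 was lower, at 1.64 ± 0.407 (SD, n = 8), and was at 3.24 in YO-F2 against 0.741 to 1.92 in the others, the opposite order to ADAMTS1. ENSBGRG00000000067, between them and APP, was at 1.35 in YO-F2 and at 3.50 to 7.62 elsewhere. ENSBGRG00000000070 had 0 in 4 libraries and at most 0.250 in the others. The U6 RNA gene inside APP was listed at 0 in 8 libraries and at 0.281 in YO-F3. JAM2, ENSBGRG00000000067 and ADAMTS1 had by far their lowest value of the 9 libraries in YO-F2, whereas ADAMTS5 had its highest there. APP was lowest there by little (211 against 213 in YO-A1). YO-F2 was the library least like the others over all genes tested (median Pearson r of 0.800). Genes outside this stretch, such as ROBO1 and PLCL2, were lowest there too, so this is not particular to the neighbours of APP. How many genes were lowest in YO-F2 was not counted. The neighbours were chosen by position after their values were seen.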
